A study of Mus musculus with 9 samples.

Results

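Heat shock proteins are molecular chaperones, and 10 of their genes were followed across the 9 libraries: Hspa1a, Hspa1b, Hspb1, Dnajb1, Hsph1, Hsp90aa1, Hspa8, Hspd1, Hspe1 and Hsf1. They were picked by symbol among the 78275 gene IDs of the count table, with results of these libraries known, and all 10 passed the filter on low counts that kept 27773 genes. Hspa1a and Hspa1b were also summed, because the coding sequences of the pair are almost the same. The cells came from wild-type mouse embryos electroporated in utero at E14.5 (embryonic day) with a plasmid carrying mCherry and a microRNA-embedded hairpin, which was scrambled (sh-NT) or aimed at Gpc4 (sh-Gpc4) or Gpc2 (sh-Gpc2), both glypicans of the cell surface. After 48 h, at E16.5, mCherry-positive forebrain cells, labelled as cortical progenitors and neurons, were sorted by flow cytometry, giving 3 libraries a group. All groups therefore share the electroporation, the reporter, a hairpin and the sort, and there was no library from cells that had not been electroporated. The cells kept the wild-type glypican genes, the labels do not name the promoter of the plasmid, and they do not say whether the 3 libraries come from different litters. The SD and SE values below therefore measure the spread between these libraries, which may be technical. In bulk libraries of a sorted mixture, fewer cells of a type and less RNA per cell cannot be told apart.

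The members cover the main cytosolic and mitochondrial folding machines. HSP70 chaperones bind exposed stretches of unfolded protein and release them in a cycle driven by ATP, in which J-domain proteins start ATP hydrolysis and HSP110 proteins exchange the nucleotide. HSP90 takes over late folding intermediates of kinases and hormone receptors, small heat shock proteins hold unfolded protein without ATP, and HSP60 with its lid HSP10 encloses proteins in the mitochondrial matrix. When unfolded protein accumulates, the transcription factor HSF1 is freed from chaperones, forms trimers and binds heat shock elements, which are arrays of the unit nGAAn in alternating orientation. In the developing cortex HSF1 and its relative HSF2 are known to act in progenitor and neuron survival and migration under prenatal stress.

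The sequences just upstream of the start sites are shown for the members with the widest spread between libraries and for the chaperonin pair, because heat shock elements lie in such windows. A 2-unit match was GAANNTTC or TTCNNGAA, each its own reverse complement, and a 3-unit match was GAANNTTCNNGAA or TTCNNGAANNTTC, each the reverse complement of the other, so that every 3-unit match also holds overlapping 2-unit matches. The windows are the 250 bases before a RefSeq start site on GRCm38.p6. They were found for 7 of the 10 members, in 10 windows. A 2-unit match stood in at least 1 window of 6 of those members. Of all 32817 windows of this length, 12.8% held such a match. A count of members and a share of windows are unlike measures, as some members have more than 1 window. Hspd1 and Hspe1 were the 2 members with an exact 3-unit match, in a stretch they share, and 0.466% of all windows had such a match. Capitals below mark the 2-unit matches. The windows shown are those of Hspa1a (chr17:34972157-34972406, minus strand), its copy Hspa1b (chr17:34959239-34959488, minus strand) and Hspb1 (chr5:135887669-135887918, plus strand). The run shared by Hspd1 and Hspe1 is at chr1:55088059-55088076 and is read on the plus strand.
Hspa1a: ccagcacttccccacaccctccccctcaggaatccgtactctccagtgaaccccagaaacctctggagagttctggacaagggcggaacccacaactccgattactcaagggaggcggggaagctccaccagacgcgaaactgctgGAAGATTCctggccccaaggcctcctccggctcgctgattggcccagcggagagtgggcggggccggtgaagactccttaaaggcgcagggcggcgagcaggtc
Hspa1b: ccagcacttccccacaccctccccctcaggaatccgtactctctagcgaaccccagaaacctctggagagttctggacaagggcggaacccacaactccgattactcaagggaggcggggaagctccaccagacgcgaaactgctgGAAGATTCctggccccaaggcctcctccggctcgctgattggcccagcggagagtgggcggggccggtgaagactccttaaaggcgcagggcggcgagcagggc
Hspb1: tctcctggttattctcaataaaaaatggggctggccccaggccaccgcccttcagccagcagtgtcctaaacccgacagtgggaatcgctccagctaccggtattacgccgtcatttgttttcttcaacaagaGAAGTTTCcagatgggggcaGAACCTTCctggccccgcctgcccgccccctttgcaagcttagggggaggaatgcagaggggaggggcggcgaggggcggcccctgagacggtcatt
Hspd1-Hspe1 run: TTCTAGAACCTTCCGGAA
The upstream windows of Hspa1a and Hspa1b differed at 3 of 250 bases, none of them in the capitals. Both hold the match GAAGATTC, from 104 to 97 bases upstream of the start site, and 2 overlapping 3-unit matches with 1 letter off, a looser motif found in 6.07% of all windows. Hspb1 has a pair of 2-unit matches, GAAGTTTC from 117 to 110 bases upstream and GAACCTTC from 97 to 90. Hspd1 and Hspe1 are transcribed away from each other, from start sites 215 bases apart in RefSeq, and the 18-base run of 4 alternating units between them lies 144 to 127 bases upstream of Hspd1 and 89 to 72 bases upstream of Hspe1. A further RefSeq start site of Hspd1 lies beyond the run, and its own window held no match. In GENCODE M21 the run also lies inside the first exon of an alternative Hspd1 transcript. Hsph1 had the 2-unit match TTCTCGAA ahead of both its start sites, and Dnajb1 had none ahead of either. These matches describe letters and are not measured binding.

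**Figure D1:**
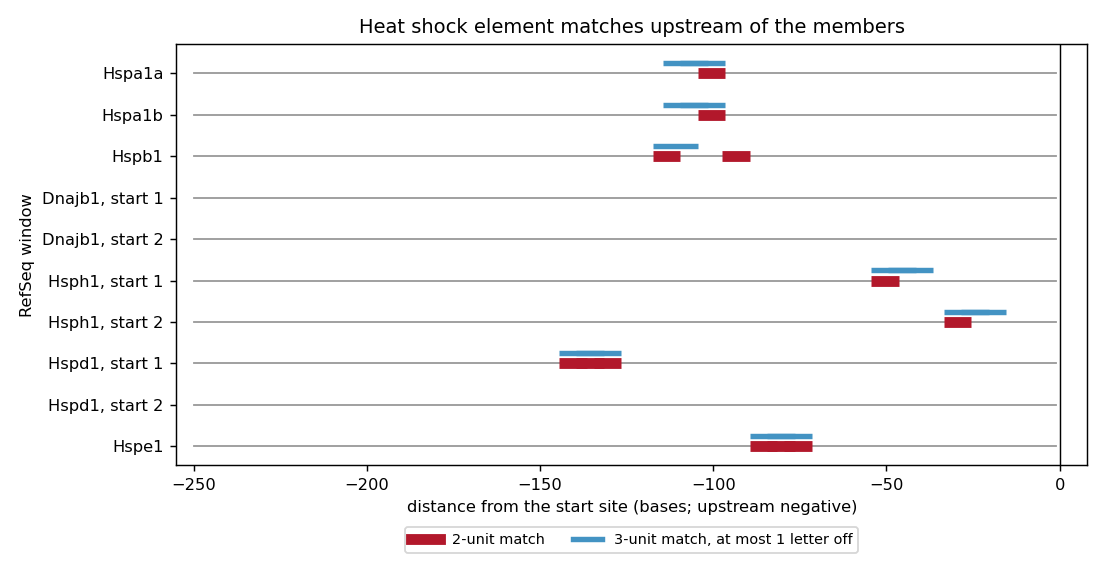
Position of heat shock element matches in the 250 bases before each RefSeq start site of the members; the horizontal axis is the distance from the start site in bases, red bars are 2-unit matches and blue bars 3-unit matches with at most 1 letter off. Hspa1a and Hspa1b carry their matches at the same distance, and Hspd1 and Hspe1 share a run of 4 units.

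Libraries carry their column number as a name (sh-NT 1, 2 and 4, sh-Gpc4 1, 3 and 4, sh-Gpc2 1, 2 and 4). Totals ran from 48045603 to 66538437 reads. In CPM (library-scaled counts, with TMM factors), Gpc4 ranged over 165 to 188 in the controls and 99.9 to 137 CPM in the group aimed at it; Gpc2 ranged over 161 to 207 CPM in the controls and 79.6 to 167 CPM in its own group, so the second target overlapped its control, through sh-Gpc2 1. The reverse pairs were not flat: Gpc2 was at 168, 70.3 and 96.6 CPM in sh-Gpc4 1, 3 and 4, and Gpc4 at 145, 216 and 116 CPM in sh-Gpc2 1, 2 and 4, and both targets were lowest in a library that stands apart within the group aimed at them. On the first principal component of 11978 genes, which held 71.7% of the variance, sh-Gpc4 3 (46.7) and sh-Gpc2 4 (36.6) stood apart from the other libraries (-25.8 to 15.8). On the second component sh-Gpc2 2 was at 24.7 and the other libraries at -13.5 to 4.74. Below, the libraries that stand apart are sh-Gpc4 3 and sh-Gpc2 4 only. Each member's comparisons with sh-NT are also given without both, with sh-Gpc2 2 kept. The labelled cells were present. The 7 radial glia markers summed to 1803 to 1943.5 CPM in sh-NT, 1576 to 2076 CPM in sh-Gpc4 and 1871 to 2594 CPM in sh-Gpc2. The 7 excitatory neuron markers summed to 3715 to 4308, 3610 to 4211 and 3510 to 3986 CPM in the same groups. Of the 7 radial glia markers, 6 had a positive log2 fold change in sh-Gpc2 against sh-NT and 2 in sh-Gpc4 against sh-NT. For the 7 neuron markers these counts were 2 and 1, where 50.7% and 52.8% of all genes were positive. The 7 microglia markers summed to 590 to 858 CPM in sh-NT, 732 to 1109 CPM in sh-Gpc4 and 323 to 1011 CPM in sh-Gpc2, the 6 erythroid markers to 79.3 to 191 CPM and the 5 endothelial markers to 3.46 to 8.42 CPM over all libraries. The 6 interneuron markers summed to 4.67 to 38.5 CPM in sh-NT, 4.43 to 5.56 CPM in sh-Gpc4 and 6.63 to 9.21 CPM in sh-Gpc2. The 5 mural markers summed to 10.02 to 13.5, 6.08 to 7.70 and 5.45 to 10.9 CPM in the same groups, and the 4 oligodendrocyte precursor markers to 4.58 to 14.9, 1.02 to 4.37 and 4.08 to 13.5 CPM. No tested marker was at 0 in all libraries, and the part of these cells in the values below was not tested.

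The members spanned a wide range of abundance in the control cells. Per kilobase of their longest GENCODE M21 transcript, the mean sh-NT level was highest for Hspa8, the constitutive cytosolic HSC70, at 546 ± 41.5 CPM per kb (SD, n = 3). Hspd1 followed at 154 ± 5.10, then Hsp90aa1 at 121 ± 10.5 and Hspe1 at 119 ± 4.14, the last 2 within their spread of each other. Hsph1 at 58.5 ± 5.52, Dnajb1 at 56.2 ± 5.94 and Hsf1 at 50.2 ± 2.93 CPM per kb formed a lower group whose neighbours were within 1 SD or little more. The inducible Hspa1a was far below them at 3.91 ± 0.641 CPM per kb, and Hspb1 (0.227 ± 0.105) and Hspa1b (0.203 ± 0.0607) were lowest and not separable from each other. These levels are not corrected for sequence shared with other genes. The share of 75-base stretches found in another gene ran from 0% for Dnajb1, Hsph1 and Hsf1 to 68.6% for Hspa8. It was 61.7% for Hspa1a, 55.8% for Hspa1b and 47.3% for Hspb1. Its part in the order of the members was not tested. The 3 scarcest genes had the widest spread between libraries. The highest library was 8.14 times the lowest for Hspb1, 7.10 times for Hspa1b and 5.46 times for Hspa1a, against 1.22 times for Hspd1 and 1.87 times or less for every other member. Together the members took 0.254% to 0.352% of the reads of a library, most in sh-Gpc2 4 and sh-Gpc4 3, and Hspa8 alone was the largest single contributor.

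**Figure D2:**
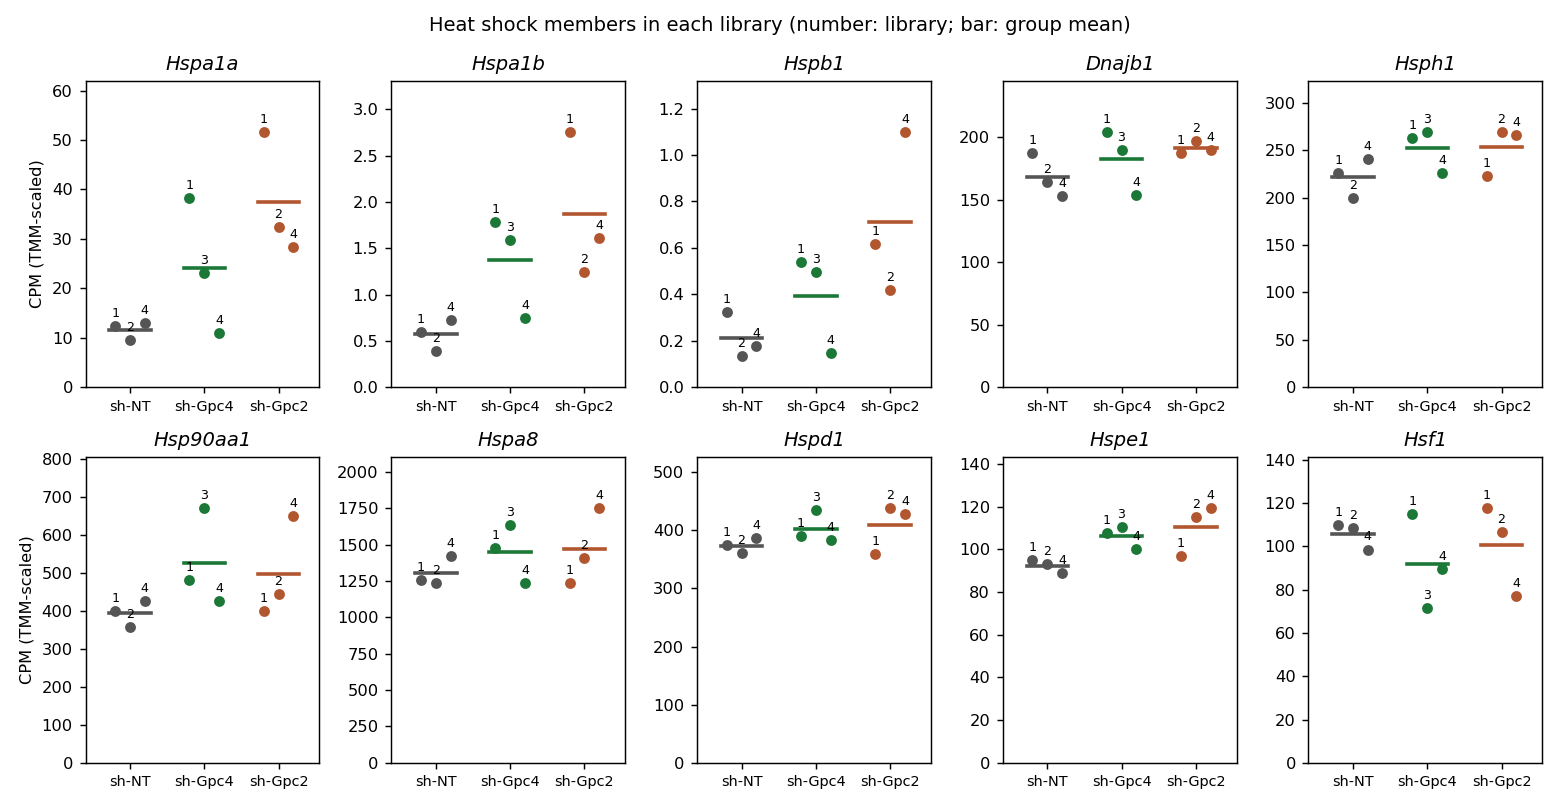
TMM-scaled CPM of each member (vertical axis, from 0) in every library by group; each point is a library with its number and the bar is the group mean. For Hspa1a the 3 sh-Gpc2 libraries lie above every sh-NT library, while Dnajb1, Hspa8 and Hspd1 overlap between groups.

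The stress-inducible HSP70 genes were on average higher in sh-Gpc4 and in sh-Gpc2 than in the control. Hspa1a (ENSMUSG00000091971, GRCm38 chr17:34969190-34972156, minus strand, a single exon) was at 12.3, 9.45 and 13.1 CPM in sh-NT 1, 2 and 4, at 38.3, 23.0 and 10.9 CPM in sh-Gpc4 1, 3 and 4, and at 51.6, 32.5 and 28.4 CPM in sh-Gpc2 1, 2 and 4. All sh-Gpc2 libraries lay above all sh-NT libraries, whereas sh-Gpc4 4 lay within the sh-NT range and the other sh-Gpc4 libraries above it. Group means were 11.6 ± 1.90 (sh-NT), 24.0 ± 13.7 (sh-Gpc4) and 37.5 ± 12.4 CPM (sh-Gpc2; SD, n = 3 each). The edgeR log2 fold change against sh-NT was 1.69 (SE 0.40, 95% interval 0.78 to 2.60) for sh-Gpc2 and 1.05 (SE 0.40, 0.15 to 1.94) for sh-Gpc4. These values helped to choose the members and both comparisons use the same sh-NT libraries, so they are given as a description. Its highest libraries were sh-Gpc2 1 and sh-Gpc4 1, and neither is among the libraries that stand apart. Both had the highest level of the targeted gene in their group. Gpc2 was at 167 CPM in sh-Gpc2 1, within the sh-NT range, and Gpc4 was at 137 CPM in sh-Gpc4 1. A relation between target level and Hspa1a was not tested. Without sh-Gpc4 3 and sh-Gpc2 4 the log2 fold changes were 1.85 and 1.07. With sh-Gpc4 1 left out, the sh-Gpc4 value was 0.54, the lowest of any single omission.

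Hspa1b (ENSMUSG00000090877, chr17:34956436-34959238, minus strand, a single exon), which encodes nearly the same protein, was at 0.595, 0.388 and 0.725 CPM in sh-NT 1, 2 and 4, 1.78, 1.59 and 0.751 CPM in sh-Gpc4 1, 3 and 4, and 2.75, 1.24 and 1.61 CPM in sh-Gpc2 1, 2 and 4. All 6 sh-Gpc4 and sh-Gpc2 libraries were above every sh-NT library, by a narrow margin for sh-Gpc4 4. Its log2 fold change was 1.71 (SE 0.41) for sh-Gpc2 and 1.26 (SE 0.41) for sh-Gpc4, and 1.80 and 1.12 without the libraries that stand apart. The 2 genes could not be told apart with certainty by these reads: the coding sequences had 8 mismatches and were 99.6% identical, the 5′ UTRs 98.7%, and the 3′ UTRs 77.7% of aligned bases. Of all 75-base stretches, 61.7% of the Hspa1a and 55.8% of the Hspa1b transcript occur in another gene. Hspa1b took 3.69% to 6.46% of the reads of the pair in the 9 libraries, with overlapping ranges in the 3 groups, so the summed pair follows Hspa1a. Summed, the pair was at 12.2 ± 2.07 CPM in sh-NT, 25.4 ± 14.2 in sh-Gpc4 and 39.4 ± 13.1 in sh-Gpc2, with log2 fold changes of 1.06 (SE 0.40) for sh-Gpc4 and 1.69 (SE 0.40) for sh-Gpc2, and 1.07 and 1.84 without those libraries. A predicted gene on the opposite strand, Gm20481, lies across Hspa1a and had 205 to 289 reads in sh-NT, 275 to 714 in sh-Gpc4 and 550 to 1112 in sh-Gpc2. Its reads were 35.3% to 39.7% of the Hspa1a reads in every library, so that it has the Hspa1a pattern, and reads of the 2 strands cannot be told apart because strand use is not given. Gm10501, a predicted gene that shares stretches with both copies, had 1190 to 1291 reads in sh-NT, 1028 to 1578 in sh-Gpc4 and 1104 to 1515 in sh-Gpc2, with no group apart.

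Hspb1 (ENSMUSG00000004951, chr5:135887919-135889563, plus strand), the small heat shock protein that binds unfolded protein without ATP and also protects actin filaments, was near the limit of detection. It had 20, 8 and 10 reads in sh-NT 1, 2 and 4, 27, 33 and 10 reads in sh-Gpc4 1, 3 and 4, and 35, 26 and 54 reads in sh-Gpc2 1, 2 and 4, or 0.135 to 0.322 CPM, 0.147 to 0.539 CPM and 0.420 to 1.10 CPM. The sh-Gpc2 libraries lay above all sh-NT libraries, although the exact 95% Poisson interval of sh-NT 1 (12.2 to 30.9 reads) overlapped that of sh-Gpc2 2 (17.0 to 38.1 reads). These intervals cover counting error only. The log2 fold change was 1.72 (SE 0.54, 95% interval 0.50 to 2.94) for sh-Gpc2, with the highest library in sh-Gpc2 4, and 1.26 without the libraries that stand apart. For sh-Gpc4 it was 0.86 (SE 0.57, interval -0.41 to 2.13), 0.62 without those libraries and -0.02 in limma voom with sample weights.

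The partners that run the HSP70 cycle had smaller estimated differences than Hspa1a. Dnajb1 (ENSMUSG00000005483, chr8:83608193-83612653), the J-domain protein that stimulates HSP70, was at 188, 165 and 153 CPM in sh-NT 1, 2 and 4, 204, 190 and 154 CPM in sh-Gpc4 1, 3 and 4, and 187, 197 and 190 CPM in sh-Gpc2 1, 2 and 4. The groups overlapped, and the log2 fold change was 0.19 (SE 0.12, 95% interval -0.08 to 0.45) for sh-Gpc2 and 0.12 (SE 0.12, -0.15 to 0.38) for sh-Gpc4, and 0.18 and 0.08 without the libraries that stand apart. Hsph1 (ENSMUSG00000029657, chr5:149614287-149636376), the HSP110 nucleotide exchange factor, was at 226, 200 and 241 CPM in the sh-NT libraries, 263, 269 and 226 CPM in sh-Gpc4 and 223, 269 and 267 CPM in sh-Gpc2, in the same library order. Its groups overlapped too, with a log2 fold change of 0.19 (SE 0.11) for sh-Gpc2 and 0.18 (SE 0.11) for sh-Gpc4, and 0.13 in each without those libraries. The difference between these genes and Hspa1a was not tested, and in sh-Gpc4 their intervals overlap that of Hspa1a.

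The abundant cytosolic chaperones were highest in the libraries that stand apart. Hsp90aa1 (ENSMUSG00000021270, chr12:110690605-110702728), the more inducible of the cytosolic HSP90 genes, was at 400, 359 and 427 CPM in sh-NT 1, 2 and 4, 482, 672 and 427 CPM in sh-Gpc4 1, 3 and 4, and 400, 445 and 651 CPM in sh-Gpc2 1, 2 and 4. Only sh-Gpc4 3 and sh-Gpc2 4 exceeded 600 CPM in these 9 libraries. The log2 fold change was 0.33 (SE 0.21) for sh-Gpc2 and 0.41 (SE 0.21) for sh-Gpc4, and 0.08 and 0.19 without the libraries that stand apart. Hspa8 (ENSMUSG00000015656, chr9:40800984-40810087) was at 1258, 1240 and 1420 CPM in the sh-NT libraries, 1477, 1632 and 1236 CPM in sh-Gpc4 and 1238, 1410 and 1754 CPM in sh-Gpc2, again highest in sh-Gpc2 4 and sh-Gpc4 3. Its log2 fold change was 0.17 (SE 0.14) for sh-Gpc2 and 0.15 (SE 0.14) for sh-Gpc4, and 0.01 and 0.05 without those libraries. Of the 75-base stretches, 53.1% for Hsp90aa1 and 68.6% for Hspa8 also occur in pseudogenes, whose own rows held few reads (at most 688, for Gm15459).

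Of the mitochondrial chaperonin genes, Hspd1 had the narrowest spread of all members and Hspe1 a spread like that of Dnajb1 and Hsph1. Hspd1 (ENSMUSG00000025980, HSP60, chr1:55077835-55088243, minus strand) was at 374, 361 and 386 CPM in sh-NT 1, 2 and 4, 390, 434 and 382 CPM in sh-Gpc4 1, 3 and 4, and 359, 439 and 427 CPM in sh-Gpc2 1, 2 and 4. The groups overlapped, and the log2 fold change was 0.13 (SE 0.10) for sh-Gpc2 and 0.11 (SE 0.10) for sh-Gpc4, and 0.08 and 0.04 without the libraries that stand apart. Hspe1 (ENSMUSG00000073676, HSP10, chr1:55088132-55091307, plus strand) was at 94.9, 93.0 and 88.7 CPM in the sh-NT libraries, 108, 110 and 100.3 CPM in sh-Gpc4 and 97.0, 115 and 119 CPM in sh-Gpc2. All 6 sh-Gpc4 and sh-Gpc2 libraries were above all 3 sh-NT libraries, by a small amount. The log2 fold change was 0.26 (SE 0.10, 95% interval 0.04 to 0.48) for sh-Gpc2 and 0.20 (SE 0.10, interval -0.01 to 0.42) for sh-Gpc4, and 0.19 and 0.17 without the libraries that stand apart. The ratio of Hspd1 to Hspe1 CPM per kb of transcript lay between 1.14 and 1.39 in all libraries, with sh-NT 4 highest. The 2 genes overlap head to head, so part of the reads at their shared start may count for either.

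Hsf1 (ENSMUSG00000022556, chr15:76477422-76501913, plus strand), the transcription factor of the response, was lowest in the libraries where Hsp90aa1 and Hspa8 were highest. It was at 110, 109 and 98.5 CPM in sh-NT 1, 2 and 4, 115, 71.5 and 89.5 CPM in sh-Gpc4 1, 3 and 4, and 118, 107 and 77.1 CPM in sh-Gpc2 1, 2 and 4. Its lowest libraries were sh-Gpc4 3 and sh-Gpc2 4, and its highest were sh-Gpc2 1 and sh-Gpc4 1, the same as for Hspa1a. The log2 fold change was -0.07 (SE 0.19) for sh-Gpc2 and -0.20 (SE 0.19) for sh-Gpc4, and 0.07 and -0.06 without those libraries. HSF1 is controlled mainly as a protein, so its transcript level does not report its activity. Hsf1 and Hspa1a are rich in G and C (57.8% and 58.9% of transcript bases) and Hsp90aa1 is not (43.7%). With the trend of each library on GC content removed, the sh-Gpc4 log2 fold change was -0.07 for Hsf1 and 1.39 for Hspa1a, and the sh-Gpc2 values were -0.01 and 1.84. For Hsp90aa1 they were 0.32 in sh-Gpc4 and 0.29 in sh-Gpc2. The scarce Hspb1 (61.7% G and C) and Hspa1b (58.1%) moved up as well. Hspb1 was then at 1.29 in sh-Gpc4 and 1.98 in sh-Gpc2, and Hspa1b at 1.62 and 1.86. The part of GC content in these values was not tested further.

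**Figure D3:**
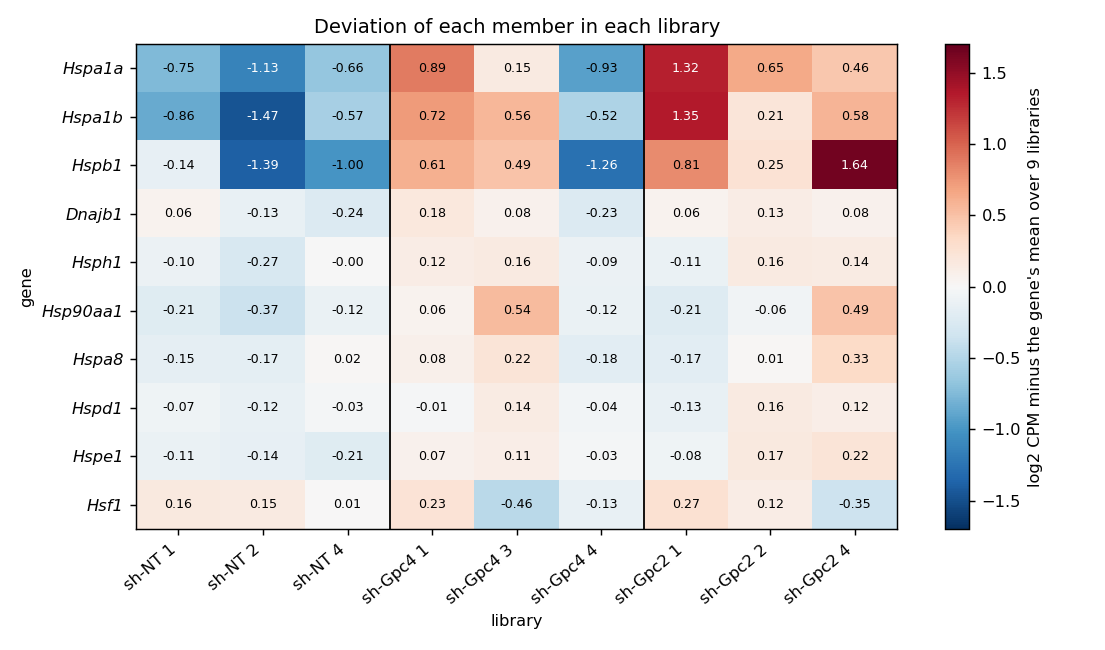
Log2 CPM of each member minus its mean over the 9 libraries (colour and printed value; columns are libraries, grouped by hairpin, rows are genes). Hspa1a, Hspa1b and Hspb1 are below their mean in all sh-NT libraries and in sh-Gpc4 4, and Hsp90aa1 and Hsf1 deviate in opposite directions in sh-Gpc4 3 and sh-Gpc2 4.

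Over the whole group, 9 of 10 members had a positive log2 fold change in sh-Gpc2 against sh-NT, with a median of 0.22 against 0.00 over all 27773 genes tested, and 9 of 10 in sh-Gpc4 against sh-NT, with a median of 0.19 against 0.02. Hsf1 was the exception in both. Of all genes tested, 50.7% had a positive value in the first comparison and 52.8% in the second. The sh-Gpc2 and sh-NT libraries did not overlap for 4 members, Hspa1a, Hspa1b, Hspb1 and Hspe1, all higher in sh-Gpc2; over all genes 3.59% lay higher and 4.11% lower in this way. For sh-Gpc4 this held for Hspa1b and Hspe1, both higher, where 10.8% of all genes lay higher and 13.2% lower in this way. A log2 fold change above 1, which 0.475% of all genes had in sh-Gpc2 against sh-NT and 0.81% in sh-Gpc4 against sh-NT, was reached by Hspa1a, Hspa1b and Hspb1 in the first comparison and by Hspa1a and Hspa1b in the second. Because these contrasts helped to choose the members, nothing is read from these counts. No gene passed an adjusted p of 0.05 in the edgeR quasi-likelihood test in any contrast, the members included; 712 genes in sh-Gpc2 against sh-NT and 2657 in sh-Gpc4 against sh-NT had an unadjusted p under 0.05. These 2 counts moved with single libraries, to 1694 without sh-Gpc2 1 and 1484 without sh-Gpc2 2 in the first, and to 4607 without sh-Gpc2 4, 4505 without sh-Gpc4 1, 1188 without sh-NT 2 and 1091 without sh-Gpc4 3 in the second. DESeq2 called 0 and 45 genes and limma voom 0 and 0 in these contrasts, with no member among them.

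**Figure D4:**
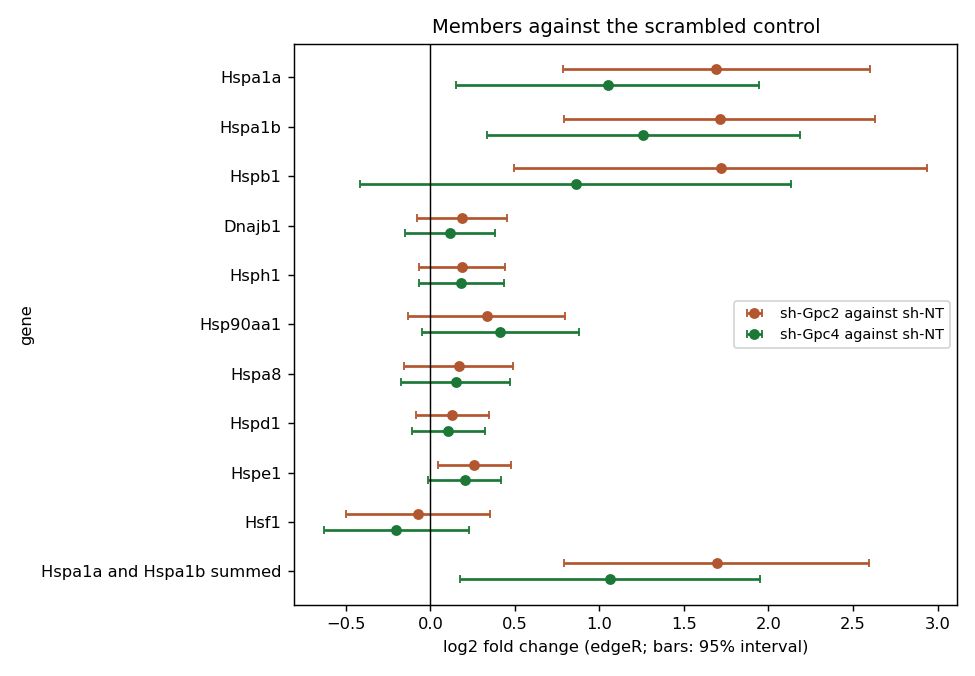
Log2 fold change from edgeR (horizontal axis) of each member and of the summed Hspa1a and Hspa1b pair in sh-Gpc2 and in sh-Gpc4 against sh-NT; points are estimates and bars their 95% intervals, with 3 libraries a group. Hspa1a, Hspa1b and Hspb1 lie between 0.86 and 1.72 and the other members between -0.20 and 0.41.

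Between sh-Gpc4 and sh-Gpc2, 9 of 10 members had a lower value in sh-Gpc4 than in sh-Gpc2, with Hsp90aa1 the exception at 0.08 (SE 0.21), and no member's libraries separated upward, against 3.5% of all genes, or downward, against 2% of all genes. The log2 difference was -0.64 (SE 0.39, 95% interval -1.53 to 0.24) for Hspa1a, -0.63 for the summed pair and -0.86 (SE 0.51) for Hspb1. Leaving out 1 library put Hspa1a between -1.15 (without sh-Gpc4 1) and -0.29 (without sh-Gpc4 4, and -0.34 without sh-Gpc2 1) and Hspb1 between -1.14 (without sh-Gpc2 2) and -0.41 (without sh-Gpc2 4, and -0.45 without sh-Gpc4 4), and limma voom gave -1.36 and -1.48. No member had a log2 difference above 1, which 0.266% of all genes had. Of all genes tested, 49.5% had a positive value in sh-Gpc4 against sh-Gpc2. For Hsph1 it was -0.00, with an interval of -0.26 to 0.25. These intervals leave room for either sign in every member. In sh-Gpc4 against sh-Gpc2, 804 genes had an unadjusted p under 0.05 and none passed the adjusted threshold in edgeR, DESeq2 or limma voom. The first count was 3653 without sh-Gpc2 4, 1499 without sh-Gpc4 1, 464 without sh-Gpc4 3 and 427 without sh-Gpc2 2.

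The rest of the chaperone network was read from lists named for their function; no gene of any list passed the test in edgeR, and paired values below give sh-Gpc2 first and sh-Gpc4 second unless a group is named. Hsp90ab1, Fkbp4 and Dnaja1 stand in more than a single list, so the list counts are not separate. Over all genes tested, 50.7% were positive in sh-Gpc2 against sh-NT and 52.8% in sh-Gpc4 against sh-NT. Among 15 other known HSF1 targets, 14 had a positive log2 fold change in sh-Gpc2 against sh-NT (median 0.11) and 10 in sh-Gpc4 against sh-NT (median 0.04). Hsp90ab1, the constitutive HSP90, was at 1050 ± 123 CPM in sh-NT, 1303 ± 225 in sh-Gpc4 and 1188 ± 298 in sh-Gpc2, and like Hsp90aa1 was highest in sh-Gpc4 3 (1563 CPM) and sh-Gpc2 4 (1520 CPM), with 945 to 1190 CPM in the other 7 libraries. Ubb, a ubiquitin precursor, was at 727 ± 126, 740 ± 92.0 and 777 ± 111 CPM. Dnaja1, a J-domain protein, had log2 fold changes of 0.11 (SE 0.09) and 0.15 (SE 0.09) in sh-Gpc2 and sh-Gpc4. The other 9 cytosolic chaperones of the HSP70, HSP90 and HSP110 families were positive for 6 in either comparison (medians 0.08 and 0.03), with Hspa4 at 0.00 and -0.11. The 13 J-domain co-chaperones were positive for 9 in each (medians 0.06 and 0.11), and the 20 HSP70 and HSP90 co-chaperones for 14 and 10 (medians 0.04 and -0.00); of the latter Stip1, which hands clients from HSP70 to HSP90, was at 0.12 (SE 0.10) and 0.10 (SE 0.10). All 8 subunits of the cytosolic chaperonin CCT were positive in both comparisons, by medians of only 0.09 and 0.10, with Cct7 the most abundant at 641 ± 37.2, 678 ± 23.9 and 684 ± 49.8 CPM in sh-NT, sh-Gpc4 and sh-Gpc2.

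Small heat shock proteins other than Hspb1 were scarce, and 6 of 9 could be tested. Of these, 5 were positive in sh-Gpc2 (median 0.20) and 3 in sh-Gpc4 (median 0.07). Hspb3, named here after its values were seen, was at 0.129 to 0.159 CPM in sh-NT, 0.265 to 0.320 CPM in sh-Gpc4 and 0.178 to 0.529 CPM in sh-Gpc2. Its log2 fold changes were 1.05 (SE 0.41) for sh-Gpc4 and 1.39 (SE 0.40) for sh-Gpc2, with no overlap with sh-NT in either. Every sh-NT library was below the low-count filter, which Hspb3 passed only through the sh-Gpc4 and sh-Gpc2 libraries. The filter thus favours a higher value in those groups, and nothing is read from the sign or the separation. The most abundant gene of this list, which goes by gene symbol, was Hspb11, at 13.5 ± 0.844, 15.1 ± 1.17 and 14.3 ± 2.36 CPM in sh-NT, sh-Gpc4 and sh-Gpc2. Of 5 heat shock factors and regulators 4 were tested and 2 were positive in each comparison. Hsf2 was at 136 ± 10.8 CPM in sh-NT, 124 ± 16.4 in sh-Gpc4 and 120.0 ± 19.9 in sh-Gpc2, and Hsbp1, a small binding partner of HSF1, had log2 fold changes of 0.17 (SE 0.11) and 0.19 (SE 0.11) in sh-Gpc2 and sh-Gpc4. The 11 mitochondrial chaperones and proteases had medians of 0.02 and 0.04, with the mitochondrial HSP70 Hspa9 at 0.00 and -0.02. Of 17 endoplasmic reticulum chaperones and unfolded protein response genes, 15 were positive in sh-Gpc2 (median 0.13) and 13 in sh-Gpc4 (median 0.05). Hspa5 (BiP, the HSP70 of that compartment) was at 1088 ± 133 CPM in sh-NT, 1291 ± 199 in sh-Gpc4 and 1466 ± 73.8 in sh-Gpc2, a log2 fold change of 0.43 (SE 0.13) for sh-Gpc2.

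**Figure D5:**
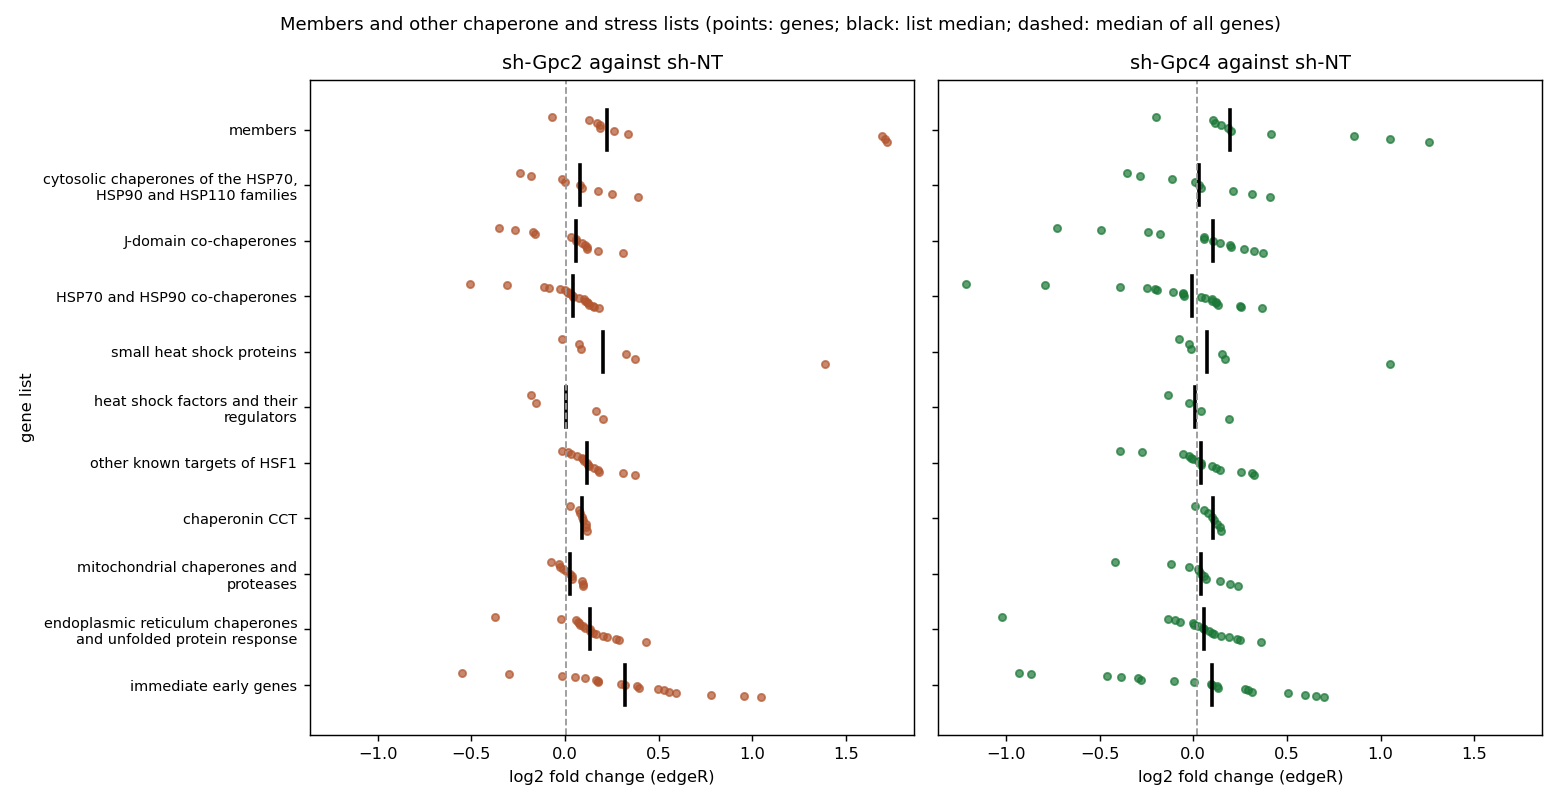
The members and 10 chaperone and stress lists: each point is the edgeR log2 fold change of a tested gene against sh-NT (left sh-Gpc2, right sh-Gpc4), the black bar is the list median and the dashed line the median of all genes. The points farthest to the right among the members are Hspa1a, Hspa1b and Hspb1, and among the small heat shock proteins Hspb3. Hspb3 passed the low-count filter only through the sh-Gpc4 and sh-Gpc2 libraries.

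Immediate early genes, which are switched on within minutes by many stimuli, handling of tissue included, followed the inducible HSP70 genes in some libraries only. Of the 19, 16 had a positive log2 fold change in sh-Gpc2 against sh-NT (median 0.32) and 12 in sh-Gpc4 against sh-NT (median 0.10), and 6 had sh-Gpc2 libraries all above sh-NT and 1, Egr1, all below, where 3.59% and 4.11% of all genes did. In sh-Gpc4 against sh-NT 2 lay wholly higher and 4 wholly lower, where 10.8% and 13.2% of all genes did. In sh-Gpc4 against sh-Gpc2 3 lay wholly lower, where 2% of all genes did. All 19 had a lower value in sh-Gpc4 than in sh-Gpc2 (median -0.29). The list median of log2 CPM, centred for each gene on its mean over the libraries, was highest in sh-Gpc2 1 (0.45) and sh-Gpc4 1 (0.25). These were the 2 libraries highest in Hspa1a. The median was next in sh-Gpc2 4 (0.20), lowest in sh-Gpc4 3 (-0.29) and at -0.003 in sh-Gpc2 2. Yet Hspa1a was at 32.5 CPM in sh-Gpc2 2 and 23.0 CPM in sh-Gpc4 3, above every sh-NT library in both. Jun, the most abundant, was at 694 ± 170 CPM in sh-NT, 743 ± 364 in sh-Gpc4 and 905 ± 152 in sh-Gpc2, and its groups overlapped. Fos was at 329 ± 13.3 CPM in sh-NT, 409 ± 97.2 in sh-Gpc4 and 483 ± 60.9 in sh-Gpc2. Dusp1 was at 318 ± 19.3, 389 ± 75.7 and 419 ± 51.7 CPM, while Egr1 was at 419 ± 44.7, 230 ± 109 and 286 ± 78.3 CPM. Their part in the Hspa1a values was not tested.

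The genes with the most similar library pattern were also sought for Hspa1a and Hspd1. Likeness was the root mean square difference over the 9 libraries between log2 CPM values centred on each gene's mean, among 10884 other named genes above 5 CPM on average, predicted genes left out. Gm20481, left out by that rule, was at 0.050 from Hspa1a, whose locus it shares. Of the genes compared, those nearest to Hspa1a were Scg2 (0.57), Fos (0.57), Pcdh20 (0.59), Klf4 (0.59) and Adarb2 (0.60), where the SD of Hspa1a itself was 0.89. Scg2, a neuropeptide precursor that is itself an activity-regulated gene, was at 3.54 to 4.91 CPM in sh-NT, 4.24 to 9.12 CPM in sh-Gpc4 and 5.87 to 7.83 CPM in sh-Gpc2. The genes nearest to Hspd1 were Cacybp (0.017), the CCT subunit Cct8 (0.020), Tcea1 (0.023), Mrpl51 (0.023) and Itpa (0.026), where the SD of Hspd1 was 0.11. Cct8 was at 420 to 444 CPM in sh-NT, 441 to 492 CPM in sh-Gpc4 and 416 to 503 CPM in sh-Gpc2, lowest in sh-Gpc2 1 and highest in sh-Gpc2 2, as was Hspd1. These libraries share depth and composition, so likeness is a description.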

How the data were processed

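The authors deposited 1 table of unnormalised read counts by gene ID for 9 libraries, made with featureCounts of the Subread package on GRCm38 (mm10), per the submitters' processing notes. Aligner, versions, annotation release and strand use: not given in the sources used here. RNA isolation and library kits were for low input, per the labels' protocols, and PCR duplicates cannot be seen in the counts. Symbols came from GENCODE M21 for 51486 of 78275 IDs (65.8%). A column name gives its group but not a titled replicate.

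Counts were fitted as deposited with edgeR 4.0.16 in R 4.3.3 (quasi-likelihood test, all 9 libraries, 1 coefficient per group, TMM factors, default filter), with Benjamini-Hochberg adjustment and a threshold of 0.05. For 95% intervals the degrees of freedom of each gene's test were used (median 9.50). The members and lists were chosen with earlier results of these data known, so members carry no p-value. Named genes are every member, up to 4 most abundant tested genes of each list and the 5 nearest in pattern to Hspa1a and to Hspd1, beside rows that share sequence or position with a member; log2 values used a pseudocount of 0.05 CPM. No 2 libraries of a group were duplicates (count chi-square at least 7.65 times its degrees of freedom). The edgeR step was first run on simulated counts in which no library stood apart. That checks the code and does not give its power in these libraries. Alternatives were DESeq2 1.42.0 size factors and Wald test, limma 3.58.1 voom, other filters, fits of 2 groups, each library left out and a replicate block; chosen after seeing the data were the removal of a GC trend (spline with 6 degrees of freedom, 22126 tested genes with a GC value, 5647 without) and leaving out sh-Gpc4 3 and sh-Gpc2 4 together. Promoter windows are from RefSeq on GRCm38.p6, with no window used for Hspa8, Hsp90aa1 and Hsf1.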

Additional observations from a re-analysis of the deposited data

How the results depend on the processing

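The log2 fold changes of the 10 members and the summed pair, 33 values over 3 contrasts, were recomputed 588 times; 21 recomputed values had the other sign, none of them of a called gene and most of them in sh-Gpc4 against sh-Gpc2. Hspa1a in sh-Gpc2 against sh-NT stayed between 1.39 and 1.86, and in sh-Gpc4 against sh-NT between 0.41 (limma voom) and 1.40. By more than 1 SD moved Hspb1 (-0.02) and Hspe1 (0.14) under limma voom and Hsp90aa1 (0.14) under the replicate block, all in sh-Gpc4 against sh-NT. No gene was called in any contrast under any alternative, except 45 by the DESeq2 Wald test in sh-Gpc4 against sh-NT; the cause was not tested. With the column number as a replicate block 0 genes were called in each contrast. Under that block, 1448 genes in sh-Gpc2 against sh-NT and 1005 in sh-Gpc4 against sh-NT had an unadjusted p under 0.05 in edgeR. In sh-Gpc4 against sh-NT it put Hspa1a at 0.74 and Hspb1 at 0.34. Deviations of same-numbered libraries of different groups correlated from -0.10 to 0.68, and those of differently numbered libraries from -0.87 to 0.83. These ranges do not settle whether the numbers pair the libraries. Leaving out 1 library at a time, the members whose libraries did not overlap numbered 4 to 8 higher in sh-Gpc2 against sh-NT (8 without sh-Gpc2 1, where 12.5% of all genes also lay higher) and 2 to 9 higher in sh-Gpc4 against sh-NT (9 without sh-Gpc4 4, 5 without sh-NT 4 and 4 without sh-Gpc4 3, where 15.6%, 21.0% and 14.8% of all genes did). Fewer libraries make such separation easier by construction. In sh-Gpc4 against sh-Gpc2, members with a positive value numbered 0 to 5 on leaving out a library, 0 with limma voom and 2 without both libraries that stand apart. The stricter filter (3 libraries above 5 CPM) removed Hspa1b and Hspb1, so it gives no value for them. Low read numbers limit Hspb1 and Hspa1b.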
